A study of Homo sapiens with 9 samples.

Results

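Readthrough genes are annotated genes whose transcripts run from an upstream gene into the next gene on the same strand, so that exons of both are joined in 1 RNA. They were taken here from the deposited counts of HMEC-1, an immortalised line of human dermal microvascular endothelial cells. A readthrough gene was a row whose symbol joins 2 names by 1 hyphen, where each of the 2 names is also a row of its own, and whose mean estimated count over the 9 libraries was at least 10. This rule found 65 readthrough rows with 130 component rows among the 29740 rows of the table, and no component belonged to more than 1 locus. Another 54 readthrough rows fell under the mean of 10, of which 11 stood at 0 in every library. Just inside the limit were DYX1C1-CCPG1 with a mean estimated count of 10.3, TMEM189-UBE2V1 with 10.98 and BIVM-ERCC5 with 11.3. Just outside were PHOSPHO2-KLHL23 with 8.70, GJA9-MYCBP with 7.26 and ZNF670-ZNF695 with 7.25. The loci were chosen by their mean estimated count, so their level is a description only.

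The study asked how trimethylamine N-oxide (TMAO), a gut microbe-derived metabolite, changes gene expression in these cells over time. Total RNA was sequenced from 3 libraries of untreated HMEC-1 (CTRL), 3 of HMEC-1 given 50 µM TMAO for 24H and 3 given the same dose for 48H, the treated cells in serum-reduced medium. No genotype or strain differed between the groups. The controls of both time-points formed 1 group, so both comparisons with CTRL share these libraries, and how long each control was cultured is not given in the sources used here. All 9 libraries come from 1 cell line, and the labels do not say whether the replicates of a group were separate cultures. The methods speak of independent experiments in general, without naming the sequencing libraries, so the p-values measure the spread between these libraries, which may be in part technical. Total estimated counts ran from 29160868 to 30069548 in CTRL, from 32179428 to 36927373 in TMAO 24H and from 25205756 to 32563494 in TMAO 48H. The library TMAO 24H replicate 1 stood apart, where 6 ribosomal RNA genes took 31.5% of its counts, while they took 1.64% to 7.46% in the other libraries. The library TMAO 48H replicate 3 also stood apart, in 4 epithelial genes. KRT5, a keratin of basal epithelium, had a normalised count of 125 there against 1470 and 1119 in the other libraries at 48H, and its partner KRT14 had 67.9 against 1020.3 and 800.1. EPCAM and CDH1, adhesion proteins of epithelia, had 38.0 and 34.5 there, and no other library of any group was below 202 for EPCAM or below 84.6 for CDH1. The endothelial label was checked against 12 markers, all of which were detected. The highest was CDH5, an adhesion protein of endothelial junctions, with a mean normalised count of 19658, and CLDN5 was low, with 44.8 to 50.2 in the group means.

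Transcription normally ends after the poly(A) signal of a gene, where the nascent RNA is cleaved and the polymerase is released. Where cleavage is missed, the polymerase can enter the next gene, and splicing can then join an exon of the upstream gene to an exon of the downstream gene. Many such transcripts are noncoding or are targets of nonsense-mediated decay, while some encode a fused protein. Because a readthrough transcript is built largely from exons of its 2 components, a short read inside a shared exon can belong to any of the 3 annotated genes, and the value of each row is an estimate of how these reads are divided.

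In GENCODE release 29 on GRCh38, which may differ from the annotation behind the deposited counts, the readthrough gene and both components were found for 57 of the 65 loci. In all 57 the 2 components lay on the same strand, with the first-named gene upstream. The median readthrough gene had 97.7% of its exon bases inside exons of its components, with a range of 35.0% to 100%, and 39 of the 57 had over 90%. The median number of exon bases of its own was 82. In 56 loci the readthrough gene started within 500 bases of a start of the upstream component, and in 3 within 500 bases of a start of the downstream component. A transcript annotated as protein-coding was present in 36 of the readthrough genes, in 33 of them with coding sequence in both components, and a nonsense-mediated decay transcript in 32.

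A read over the junction of the 2 components belongs to the readthrough transcript, and such a junction was found for 51 loci. Where found, it is shown for the loci on which the results turn and for some of the most counted ones, as the last 15 bases of the exon before it in lower case and the first 15 bases of the exon after it, which belongs to the downstream component, in capitals. None was found for TMEM256-PLSCR3, and LIMS3-LOC440895 has none because LOC440895 was not matched in GENCODE. All are in the direction of transcription from 5′ to 3′.
JMJD7-PLA2G4B: gaggccatggagaagGCAGAGGTGTCCAGG
MINOS1-NBL1: tgcacagcaacttctGGCTCTGGAGGCCAC
SLX1A-SULT1A3: tcagaattagaagagGAACATGGAGCTGAT
RTEL1-TNFRSF6B: ctggccagagccccaCAAGGACCATGAGGG
PPAN-P2RY11: gggaaatggatcgagGTGCCAAGTCCTGCC
MSH5-SAPCD1: cctcctgagactccgCTACGCAGGATGCAG
BLOC1S5-TXNDC5: caggaacgaaaaaagGTGTGGACACTGCCA
HNRNPUL2-BSCL2: caatacaatcgggatGGACCCTCCATTTTC
ISY1-RAB43: cagaaggctcctgggCTGCAGATCTGGGAC
BCL2L2-PABPN1: agcagtgggggctggGAGCTGGAAGCTATC
The JMJD7-PLA2G4B junction joins exons 6 and 7 of a protein-coding transcript of 24 exons across chr15:41836551-41840158 on the plus strand. The MINOS1-NBL1 junction joins exons 2 and 3 of a nonsense-mediated decay transcript of 5 exons across chr1:19600971-19655012 on the plus strand. The RTEL1-TNFRSF6B junction joins exons 32 and 33 of a nonsense-mediated decay transcript of 35 exons across chr20:63695854-63696760 on the plus strand. The SLX1A-SULT1A3 junction, across chr16:30197357-30200725 on the plus strand, also occurred in 3 transcripts of SLX1B-SULT1A4, a near-identical copy of this locus, so counts of these genes are uncertain. The other 9 junctions printed were found in no transcript of another gene.

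The share of the counts of a locus that lay on its readthrough row was small in most loci. The counts are not divided by transcript length, so the shares are of counts and not of molecules. Over all 9 libraries the median share was 4.61%, with 34 of 65 loci under 5%, 23 between 5% and 50% and 8 over 50%. The group medians were 4.28% in CTRL, 4.84% in TMAO 24H and 4.71% in TMAO 48H. All 65 readthrough rows together held 0.0683% ± 0.0018 (SD, n = 3) of the counts outside ribosomal RNA genes in CTRL, 0.0678% ± 0.0011 (n = 3) in TMAO 24H and 0.0670% ± 0.0031 (n = 3) in TMAO 48H. These differences were smaller than the spread between libraries.

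**Figure D1:**
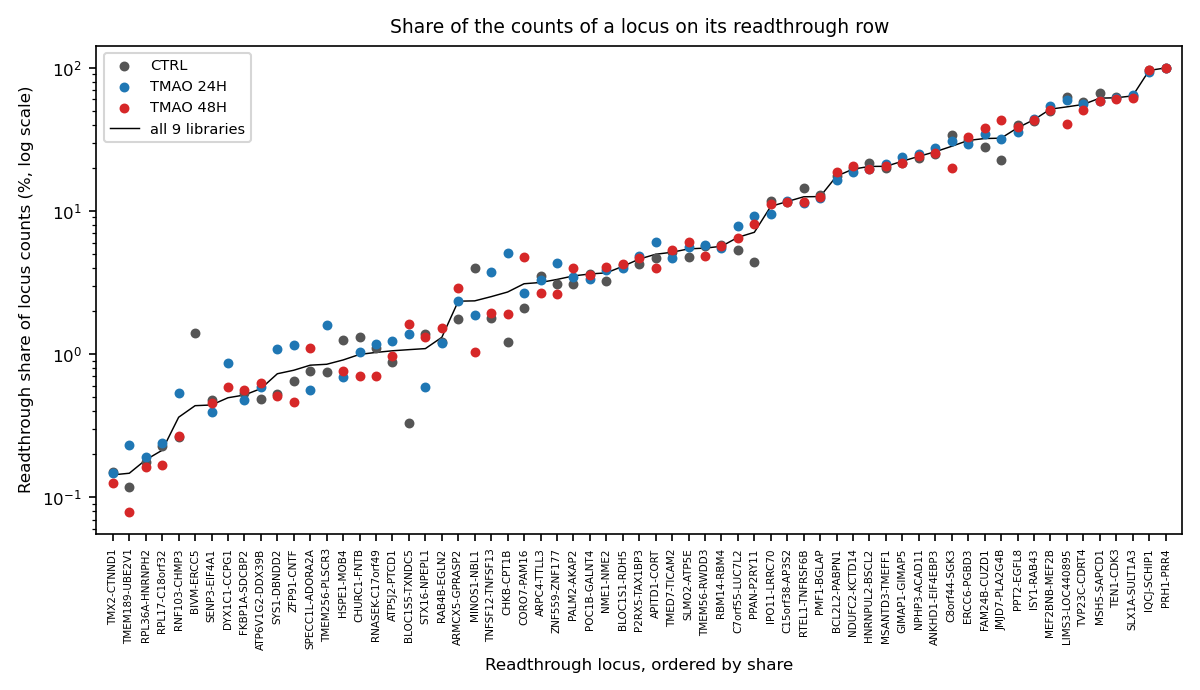
Share of the counts of a locus on its readthrough row (vertical axis, percent on a log scale) for 65 loci ordered by the share over all 9 libraries (line); points are means of 3 libraries per group, and a group at 0 has no point. The shares run from 0.144% in TMX2-CTNND1 to 99.6% in PRH1-PRR4.

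Among readthrough rows with a mean normalised count of at least 50, the largest shares were those of PRH1-PRR4 with 99.6%, IQCJ-SCHIP1 with 95.7%, SLX1A-SULT1A3 with 63.6%, TEN1-CDK3 with 61.7% and MSH5-SAPCD1 with 61.3%. PRR4, a proline-rich gene known from secretory glands, IQCJ and SULT1A3 were at 0 in all 9 libraries. The copy of the SLX1A-SULT1A3 locus had counts of its own, on SLX1B and SULT1A4, while SLX1B-SULT1A4 was at 0 in all libraries, and with the counts of the copy added to the locus the share of SLX1A-SULT1A3 was 37.3%. The smallest shares were those of SENP3-EIF4A1 with 0.442%, FKBP1A-SDCBP2 with 0.519%, BLOC1S5-TXNDC5 with 1.08%, STX16-NPEPL1 with 1.09% and MINOS1-NBL1 with 2.36%. Each of these has an abundant component, such as EIF4A1, the RNA helicase of translation initiation, or FKBP1A, the binding protein of the drug FK506.

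None of the 4 most counted readthrough rows passed the test in any comparison. HNRNPUL2-BSCL2, which joins a nuclear RNA-binding protein to seipin, a protein of lipid droplet formation, had normalised counts of 3289, 3554 and 2537 in CTRL, 2677, 2508 and 3170 in TMAO 24H and 2413, 3342 and 2698 in TMAO 48H. ISY1-RAB43, which joins a splicing factor to a small GTPase, had a normalised count of 1972 ± 172 (SD, n = 3) in CTRL, 2043 ± 73.4 (n = 3) in TMAO 24H and 2032 ± 154 (n = 3) in TMAO 48H. The groups of both overlapped in all comparisons. BCL2L2-PABPN1, which joins an inhibitor of apoptosis to the nuclear poly(A)-binding protein, had 1430.4 ± 76.8, 1304 ± 8.22 and 1449 ± 225 (SD, n = 3 each) in the same order, and at 24H all libraries were below the controls (log2 fold change -0.13 ± 0.09 (SE), adjusted p = 0.812). ANKHD1-EIF4EBP3, which joins an ankyrin-repeat protein to an inhibitor of translation initiation, had 1209 ± 103, 1385 ± 69.4 and 1263 ± 227, and at 24H all libraries were above the controls (log2 fold change 0.20 ± 0.10, adjusted p = 0.733). The other 6 of the 10 highest, SLX1A-SULT1A3, TEN1-CDK3, IQCJ-SCHIP1, ERCC6-PGBD3, NDUFC2-KCTD14 and PALM2-AKAP2, had mean normalised counts of 766 to 526.

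The readthrough rows varied more between libraries of 1 group than other genes of similar count. The coefficient of variation (CV, the SD divided by the mean) was computed within each group and the median of the 3 groups was taken. For the 63 readthrough rows that passed the filter on low counts, the median CV was 21.4%, against 6.08% for 63 upstream components, 7.09% for 54 downstream components and 5.74% for all 14740 genes tested. BIVM-ERCC5 and DYX1C1-CCPG1 did not pass the filter.

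Low counts vary more, so the rows were also compared within ranges of the mean normalised count. Between 10 and 50 the median CV was 63.9% for 24 readthrough rows and 23.1% for all 2085 genes tested in that range. Between 50 and 200 it was 22.9% for 12 readthrough rows and 11.6% for all, and between 200 and 1000 it was 12.6% for 23 readthrough rows and 5.84% for all. Above 1000 the 4 readthrough rows had a median of 8.05% against 3.69% for all. In each range the readthrough rows had the higher median. Downstream components of low count also varied, with a median of 50.2% for the 6 between 10 and 50 and 15.2% for the 9 between 50 and 200, and so did upstream components, with 25.1% for 3 and 15.3% for 6.

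When the readthrough row and its components were summed, the spread fell below that of the readthrough row in 62 of 63 loci, with a median CV of 4.53% for the sums of the same loci. The sums also had more counts, with a median of 2592 over 65 loci against 150 for the readthrough rows, and low counts vary more. At 200 to 1000 the median CV was 5.96% for 15 sums and 5.84% for all genes. Above 1000 it was 3.88% for 48 sums and 3.69% for all. In 14 of the 65 loci the readthrough row was at 0 in at least 1 library. All of the values of the readthrough rows above 0 were other than whole numbers (tolerance 1e-06), compared with 94.2% for the upstream components, 94.8% for the downstream components and 27.8% for all genes tested. A value that is not whole arises where reads are divided between rows.

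**Figure D2:**
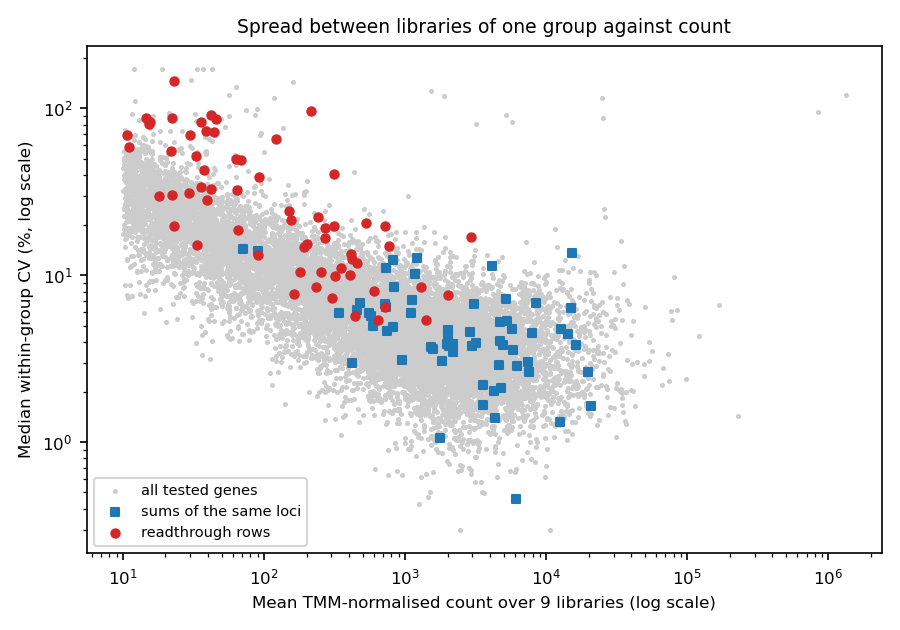
Median within-group CV (vertical axis, percent, log scale) against mean normalised count over 9 libraries (horizontal axis, log scale) for all genes tested (grey), 63 readthrough rows (red) and the sums of the same loci (blue). The readthrough rows have a median CV of 21.4% and the sums, which have more counts, one of 4.53%.

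The readthrough rows that varied most among those with a mean normalised count of at least 50 were BLOC1S5-TXNDC5 with a median CV of 96.4%, MINOS1-NBL1 with 65.9%, STX16-NPEPL1 with 49.5%, PPAN-P2RY11 with 49.4% and C7orf55-LUC7L2 with 40.3%. BLOC1S5-TXNDC5, which joins a subunit of a lysosome biogenesis complex to a protein disulfide isomerase of the endoplasmic reticulum, had normalised counts of 0, 52.6 and 151 in CTRL, 98.6, 579 and 146 in TMAO 24H and 233, 185 and 485 in TMAO 48H. All 3 libraries at 48H were above all 3 controls, yet the difference did not pass, with a log2 fold change of 2.14 ± 0.89 (SE) and an adjusted p = 0.146 in edgeR's quasi-likelihood test. TXNDC5 itself was lower at 48H by a smaller step, with normalised counts of 17657, 17254 and 17413 against 20969, 20647 and 19214 in CTRL (log2 fold change -0.22 ± 0.05, adjusted p = 0.0114).

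Across members, the CV was lower where the readthrough row had more counts (Spearman's rho -0.75 over 63 rows) and where it held a larger share of its locus (rho -0.79), measures that share the same counts. The number of exon bases outside the components bore a weak relation to it (rho -0.19 over 55 rows with annotation). The median CV was 41.7% for the 20 readthrough genes with no exon bases of their own, 29.01% for the 22 with 1 to 500 and 15.5% for the 13 with over 500, and their median normalised counts were 55.1, 91.0 and 272.

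After 24H of TMAO none of the readthrough rows, components or sums passed. A change was called at an adjusted p under 0.05 (edgeR's quasi-likelihood test on all 9 libraries, Benjamini-Hochberg adjustment over all genes tested) and at least a 1.4-fold difference. Of all 14740 genes tested, 0.0475% were called at 24H, and of the table with summed loci 0.0479%. Without adjustment, 9 of 63 readthrough rows (4 higher, 5 lower), 7 of 117 components (1 higher, 6 lower) and 3 of 65 sums (2 higher, 1 lower) had a p under 0.05, where 7.24% of all genes and 7.24% of the summed table did, and DESeq2 also called 0 of each. In 11 of the 63 readthrough rows the 3 libraries at 24H did not overlap the 3 controls, 6 above and 5 below, against 14.2% of all genes (6.73% above, 7.52% below). Without the library TMAO 24H replicate 1 the counts called were also 0.

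After 48H of TMAO 6 of 63 readthrough rows were called, 1 higher and 5 lower than in CTRL. This was 9.52% of the readthrough rows, where 1.8% of all genes tested were called, 0.882% higher and 0.916% lower. The count ranged from 3 to 6 when 1 library was left out, with 3 without CTRL replicate 1 or without TMAO 48H replicate 3, and was 4 with DESeq2. The row that rose was JMJD7-PLA2G4B. The rows that fell were TMEM256-PLSCR3, SLX1A-SULT1A3, RTEL1-TNFRSF6B, LIMS3-LOC440895 and MINOS1-NBL1. MSH5-SAPCD1, whose upstream gene is a meiotic recombination factor, had an adjusted p = 0.0342 but was under 1.4-fold, with a log2 fold change of -0.45 ± 0.12 (SE) and normalised counts of 348, 365 and 485 at 48H against 599, 475 and 568. Without TMAO 48H replicate 3 the 3 called rows were TMEM256-PLSCR3, SLX1A-SULT1A3 and MSH5-SAPCD1 (-0.62 ± 0.11, adjusted p = 0.00399).

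Of 117 component rows, 2 were called at 48H, PLA2G4B and P2RY11, both lower, which was 1.71%. Of 65 summed loci, 1 was called, SLX1A-SULT1A3, lower, which was 1.54% against 1.78% of all rows of the table with summed loci. With no fold threshold, 7 readthrough rows (11.1%), 12 components (10.3%) and 9 sums (13.8%) had an adjusted p under 0.05, beside 10.4% of all genes and 10.5% of the summed table. The other 10 components were under 1.4-fold, 5 higher and 5 lower. The widest of these were ADORA2A, an adenosine receptor and the downstream gene of SPECC1L-ADORA2A (log2 fold change -0.42 ± 0.12, adjusted p = 0.0469), and C15orf38 (0.24 ± 0.04, adjusted p = 0.00387). The median absolute log2 fold change was 0.23 for readthrough rows, 0.09 for components, 0.08 for sums and 0.11 for all genes. The median SE of these changes was 0.26 for readthrough rows and 0.07 for all genes. In 3 readthrough rows all libraries at 48H lay above the controls and in 8 all lay below, 11 of 63 in all, where the groups did not overlap in 27.8% of all genes (14.7% above, 13% below).

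**Figure D3:**
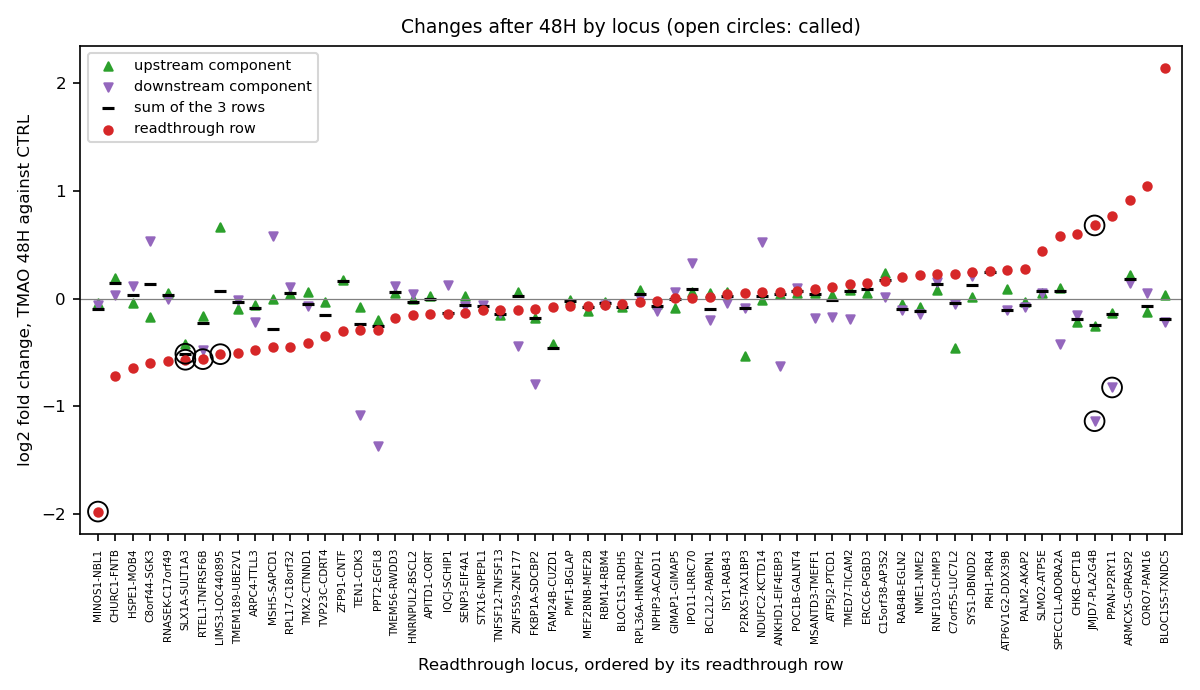
Log2 fold change of TMAO 48H against CTRL (vertical axis) of the readthrough row, its components and their sum for 62 loci ordered by the readthrough row. Open circles mark called changes; TMEM256-PLSCR3, whose readthrough row was at 0 at 48H, and components that were not tested are left out. The order places the most extreme readthrough rows at both ends, so sums closer to 0 there are no result about the loci. SLX1A-SULT1A3 is the 1 locus with a called sum.

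The estimates of JMJD7-PLA2G4B and PLA2G4B moved in opposite directions. In GENCODE 3360 of the 7862 exon bases of the readthrough gene lie in exons of PLA2G4B. Reads there are divided between the rows, so the 2 estimates are not independent. The part of this division in their changes was not tested. JMJD7 is an oxygenase that hydroxylates lysine residues, and PLA2G4B is a cytosolic phospholipase A2, an enzyme that releases fatty acids from membrane phospholipids. The readthrough gene has 6 transcripts in GENCODE, 2 of them coding across both genes. Its normalised counts were 249, 169 and 209 in CTRL, 207, 334 and 247 in TMAO 24H and 282, 349 and 373 in TMAO 48H. All libraries at 48H were above all controls, and those at 24H overlapped both. The log2 fold change at 48H was 0.68 ± 0.18 (SE, adjusted p = 0.0265).

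PLA2G4B had normalised counts of 403, 366 and 439 in CTRL, 312, 251 and 290.4 in TMAO 24H and 169, 153 and 227 in TMAO 48H. The 3 groups did not overlap, and every library at 48H was below every library at 24H. At 48H PLA2G4B fell by 1.14 on the log2 scale (SE 0.14, adjusted p = 0.000304) against CTRL, and by 0.64 (SE 0.14, adjusted p = 0.0126) against 24H. At 24H the log2 fold change against CTRL was -0.50 ± 0.14 (adjusted p = 0.397).

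JMJD7 had normalised counts of 271, 298 and 339 in CTRL, 266, 267 and 285 in TMAO 24H and 240.2, 248 and 275 in TMAO 48H, and its difference at 48H did not pass (log2 fold change -0.25 ± 0.10, adjusted p = 0.129). The sum of the 3 rows was 914 ± 77.9 (SD, n = 3) in CTRL, 819.9 ± 34.3 in TMAO 24H and 772 ± 93.6 in TMAO 48H, and did not pass at 48H either (log2 fold change -0.24 ± 0.08, adjusted p = 0.0816). The 2 components without the readthrough row did pass, with a log2 fold change of -0.69 and an adjusted p = 0.0006. Unlike the sum of the 3 rows, this sum depends on how reads are divided.

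The readthrough share of the locus was 27.0%, 20.3% and 21.2% in the control libraries, 26.4%, 39.2% and 30.02% at 24H and 40.8%, 46.5% and 42.6% at 48H. The share at 48H did not overlap that of CTRL or of 24H, and the exact permutation test gave p = 0.1 (two-sided) for each, the smallest that 3 libraries against 3 allow. The same p was reached by 10 of all 65 loci (15.4%) at 48H against CTRL and by 8 (12.3%) at 48H against 24H. Without TMAO 24H replicate 1 the mean share at 24H was 34.6% in place of 31.9%. Without TMAO 48H replicate 3 the mean share at 48H was 43.7% in place of 43.3%, and PLA2G4B had a log2 fold change of -1.32 ± 0.12 (adjusted p = 7.54e-05). The call of JMJD7-PLA2G4B at 48H was lost without CTRL replicate 2, CTRL replicate 3, TMAO 48H replicate 2 or TMAO 48H replicate 3 (adjusted p up to 0.113, and 0.0651 without TMAO 48H replicate 3), while PLA2G4B was called in each of 9 fits without 1 library (adjusted p up to 0.00247).

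**Figure D4:**
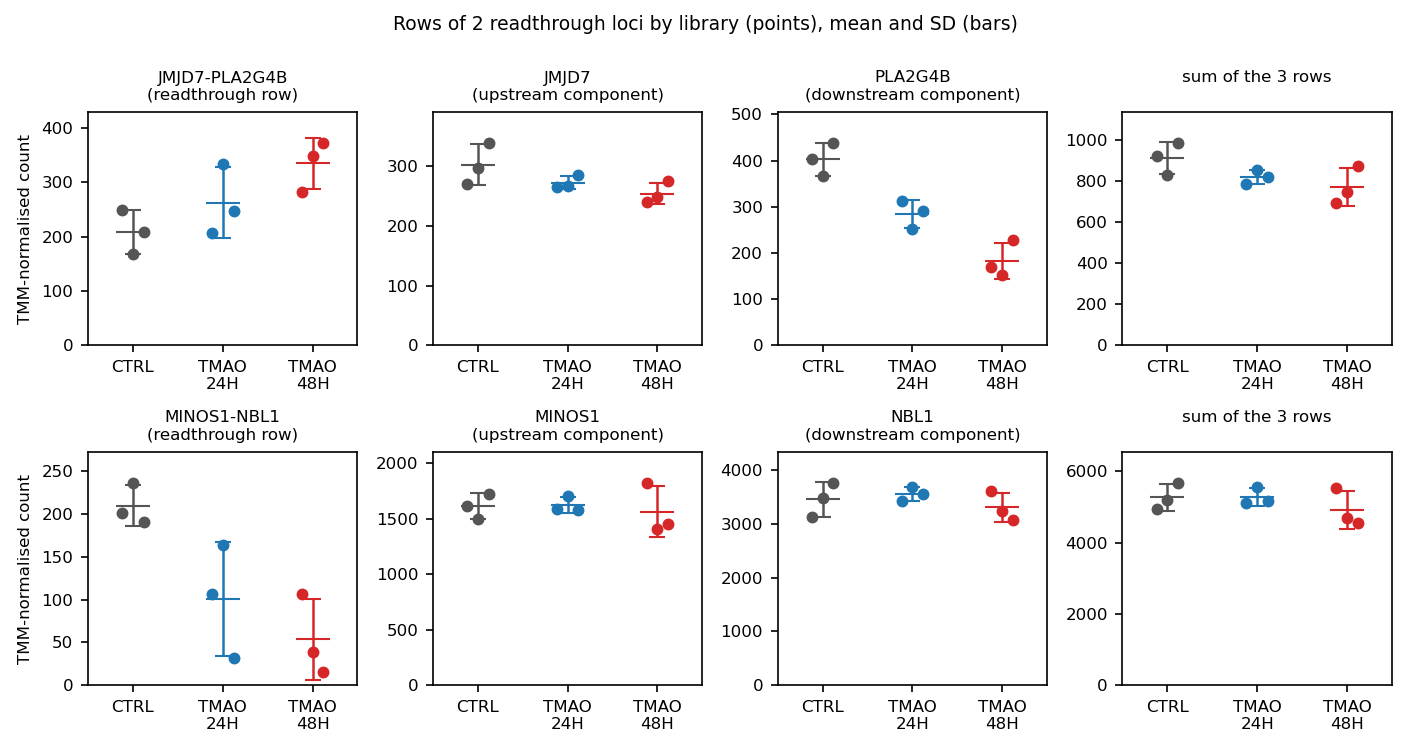
Normalised counts (vertical axes, from 0) of the readthrough row, the upstream and downstream components and their sum at JMJD7-PLA2G4B (top) and MINOS1-NBL1 (bottom); points are libraries, bars the mean and SD of 3 libraries. PLA2G4B falls from 403 to 183 on average and JMJD7-PLA2G4B rises from 209 to 335, while the MINOS1-NBL1 row falls from 209.8 to 53.5 and its components and sum overlap between groups.

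MINOS1-NBL1 had the most negative fitted change among readthrough rows that were above 0 in every group, and its components did not move with it. MINOS1 is a subunit of the complex that shapes mitochondrial cristae, and NBL1 is a secreted antagonist of bone morphogenetic proteins. All 3 of its GENCODE transcripts are nonsense-mediated decay transcripts. The readthrough row had normalised counts of 202, 237 and 191 in CTRL, 107, 164 and 31.6 in TMAO 24H and 106, 38.5 and 15.6 in TMAO 48H. Every treated library was below every control, and the treated libraries of the 2 time-points overlapped.

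The readthrough row fell by 1.98 on the log2 scale at 48H (SE 0.55, adjusted p = 0.0377), while the 24H value was -1.06 ± 0.52 (adjusted p = 0.713). The 24H value ranged from -1.63 to -0.63 when 1 library was left out, and was not called in any of the 9 fits. At 48H NBL1 had 3609, 3240 and 3080 normalised counts against 3121, 3475 and 3771 in CTRL, and MINOS1 had 1826, 1409 and 1455 against 1618, 1496 and 1726. The sum differed from CTRL by less than the spread (log2 fold change -0.10 ± 0.07, adjusted p = 0.404). The row held 4.0% of the locus in CTRL, 1.88% at 24H and 1.03% at 48H. Leaving out 1 library at 48H gave a share there of 0.581% (without replicate 1) to 1.37% (without replicate 3), and the log2 fold change at 48H ranged from -2.90 (without TMAO 48H replicate 1) to -1.55 (without TMAO 48H replicate 3, adjusted p = 0.0733). DESeq2 gave an adjusted p = 0.0711 for the row at 48H, and its call was lost without any 1 of CTRL replicates 1, 2 or 3 or TMAO 48H replicates 2 or 3.

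TMEM256-PLSCR3 was listed at 0 in all 3 libraries at 48H. PLSCR3 is a phospholipid scramblase of mitochondria. All 4 GENCODE transcripts of the readthrough gene are nonsense-mediated decay transcripts. Its normalised counts were 6.89, 21.4 and 21.6 in CTRL, 36.5, 34.5 and 40.8 in TMAO 24H and 0 in each library at 48H. The 3 groups did not overlap, with 24H the highest.

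With a floor of 3 counts over the group in place of 0, the estimate at 48H was 15.6-fold lower than in CTRL and 35.0-fold lower than at 24H. Both are ratios of estimates of how reads were divided, and give no lower bound on a fall of the transcript. At 48H the estimated counts of TMEM256 (328, 369 and 281) and PLSCR3 (1438, 1781 and 1429) were whole numbers. PLSCR3 had 1815, 1911 and 1802 normalised counts in CTRL, 1963, 1921 and 1930 at 24H and 1674, 1568 and 1644 at 48H, a log2 fold change at 48H of -0.18 ± 0.04 (adjusted p = 0.0209), under 1.4-fold. The row held 0.746% of the locus counts in CTRL and 1.60% at 24H. The locus entered through its libraries at 24H, since its mean estimated count over CTRL and 48H was 8.34, under the limit of 10, and the fit of only CTRL and 48H left it out by the filter on low counts. DESeq2 gave it no adjusted p. Its values are therefore a description, and its calls count among those at 48H without adding support to them.

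SLX1A-SULT1A3 fell together with the sum of its 3 rows, though not by 1.4-fold once the copy of the locus was added. SLX1A is a subunit of a DNA structure-specific endonuclease, and SULT1A3 is a sulfotransferase of catecholamines. The readthrough row had normalised counts of 870.5, 753 and 1018 in CTRL, 784, 866 and 816 in TMAO 24H and 492, 623 and 667 in TMAO 48H. All libraries at 48H were below those of the other groups, which overlapped each other. The row fell by 0.57 on the log2 scale (SE 0.11, adjusted p = 0.00734) and the sum by 0.51 (SE 0.10, adjusted p = 0.00457). With the rows SLX1B and SULT1A4 of the near-identical copy added, a sum chosen after seeing the data, the log2 fold change at 48H was -0.32 ± 0.06 (adjusted p = 0.00718), under 1.4-fold. SLX1B had one of -0.04 ± 0.11 (adjusted p = 0.879) and SULT1A4 one of -0.07 ± 0.10 (adjusted p = 0.712). SLX1A alone did not pass (log2 fold change -0.42 ± 0.15, adjusted p = 0.0945). Without CTRL replicate 3 or without TMAO 48H replicate 1 the fall of both was under 1.4-fold, and without TMAO 48H replicate 3 the row fell by 0.66 (adjusted p = 0.00505) and the sum by 0.52 (adjusted p = 0.00992).

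RTEL1-TNFRSF6B joins a helicase of telomere maintenance to a soluble decoy receptor for ligands of the TNF family. Its normalised counts were 397, 284 and 334 in CTRL, 202, 288 and 259 in TMAO 24H and 239, 236 and 213 in TMAO 48H. The libraries at 48H were all below the controls and inside the range at 24H. The row fell by 0.56 on the log2 scale at 48H (SE 0.14, adjusted p = 0.0216). TNFRSF6B had a log2 fold change of -0.48 ± 0.16 (adjusted p = 0.0773), RTEL1 one of -0.16 ± 0.08 (adjusted p = 0.229) and the sum one of -0.22 ± 0.07 (adjusted p = 0.051). The call was lost without CTRL replicate 1 and without TMAO 48H replicate 2 or 3 (-0.51 ± 0.16, adjusted p = 0.0543 without the last). Without TMAO 48H replicate 3 RTEL1 had a log2 fold change of -0.26 (adjusted p = 0.0262) and the sum one of -0.30 (adjusted p = 0.00915), both under 1.4-fold.

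LIMS3-LOC440895 lies at a duplicated LIM domain gene, so its counts are uncertain. The readthrough row had normalised counts of 227, 203 and 202 in CTRL, 198, 162 and 192 in TMAO 24H and 142, 172 and 128 in TMAO 48H. The libraries at 48H were all below the controls. The row fell by 0.52 on the log2 scale (SE 0.13, adjusted p = 0.0227). LIMS3 had 206, 190.0 and 263 at 48H against 216, 69.9 and 130.3 in CTRL, which overlapped, with a log2 fold change of 0.66 ± 0.28 (adjusted p = 0.156). The sum had a log2 fold change of 0.07 ± 0.14 (adjusted p = 0.793). The copy LIMS3L had normalised counts of 299.9, 394 and 463 in CTRL, 496, 440.1 and 465 at 24H and 232, 245 and 190.0 at 48H. All of its libraries at 48H were below those of the other groups, and it fell by 0.79 (SE 0.14, adjusted p = 0.00353). With LIMS3L added, the sum of the locus had a log2 fold change of -0.32 ± 0.07 (adjusted p = 0.0119), under 1.4-fold. The call of the readthrough row was lost without CTRL replicate 1, CTRL replicate 2, TMAO 48H replicate 1 or TMAO 48H replicate 3 (-0.42 ± 0.13, adjusted p = 0.0614 without the last).

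**Figure D5:**
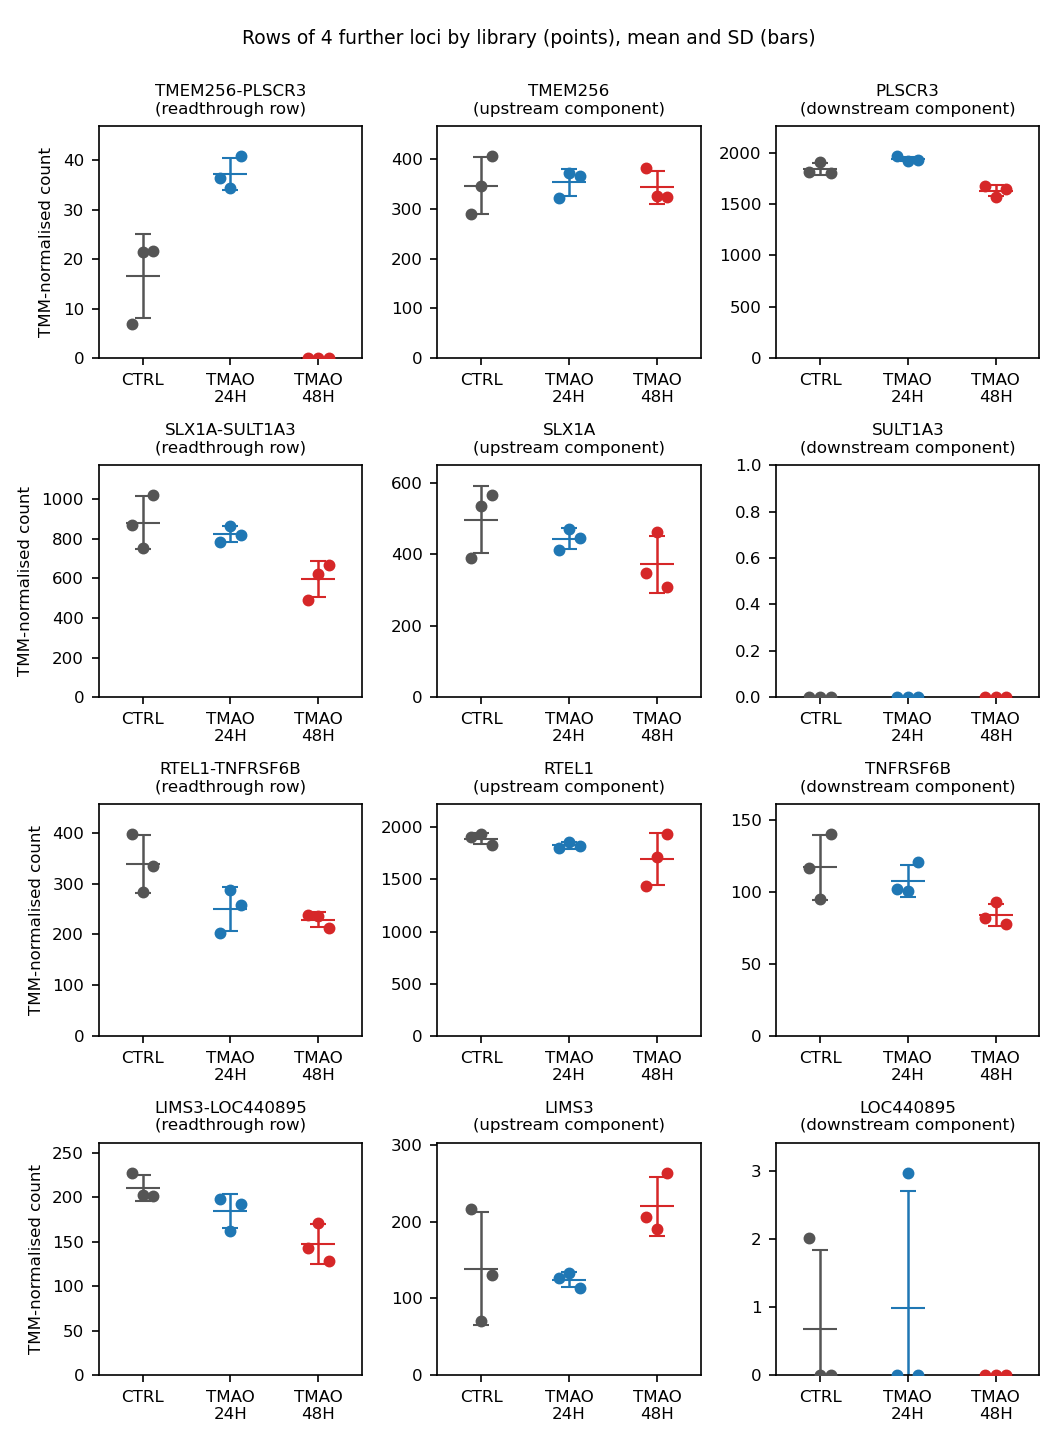
Normalised counts (vertical axes, from 0) of the readthrough row and its 2 components at 4 further loci with a called readthrough row; points are libraries, bars the mean and SD of 3 libraries, cut at 0. The readthrough rows at 48H lie below all controls in each locus, and SULT1A3 is at 0 in all libraries.

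P2RY11, a receptor for extracellular ATP, is the downstream component of PPAN, a factor of ribosome assembly. Its normalised counts were 117, 110.3 and 107 in CTRL, 60.8, 96.4 and 64.0 in TMAO 24H and 48.0, 71.9 and 68.2 in TMAO 48H. All treated libraries were below all controls, and the 2 time-points overlapped. P2RY11 fell by 0.83 on the log2 scale at 48H (SE 0.20, adjusted p = 0.0203). The readthrough row PPAN-P2RY11 had 23.5, 37.7 and 67.4 in CTRL and 88.1, 32.1 and 100.2 at 48H, with a log2 fold change of 0.77 ± 0.42 (adjusted p = 0.274). Its change ranged from 0.47 to 1.25 when 1 library was left out, and was not called in any of the 9 fits. The sum of the locus had a log2 fold change of -0.14 ± 0.05 (adjusted p = 0.12), but PPAN held 84.2% of the locus counts. This sum therefore shows little of a shift between the other 2 rows. Reads in exons that P2RY11 and PPAN-P2RY11 share are divided between them, so their estimates are not independent. The part of this division in the fall of P2RY11 was not tested. Without TMAO 48H replicate 3 P2RY11 fell by 0.88 (adjusted p = 0.0293). The call of P2RY11 was lost without CTRL replicate 1, CTRL replicate 2 or TMAO 48H replicate 1.

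Between the 2 time-points, 1 of 63 readthrough rows and 1 of 117 components were called, both lower at 48H, where 1.7% of all genes were called (0.862% higher, 0.841% lower). They were TMEM256-PLSCR3, which entered through its high libraries at 24H, and PLA2G4B. None of the 65 sums was called in edgeR or DESeq2, beside 1.74% of the table with summed loci, and without adjustment 18 sums had a p under 0.05 (5 higher, 13 lower), where 22.3% of the summed table did. With no fold threshold 3 readthrough rows, 6 components and 3 sums passed, where 7.52% of all genes and 7.64% of the summed table did. ERCC6-PGBD3, which joins a DNA repair factor to a domesticated transposase, had 570.4, 588 and 529 normalised counts at 24H and 675, 727 and 727 at 48H, without overlap (log2 fold change 0.34 ± 0.08, adjusted p = 0.0156), under 1.4-fold. LRRC70, the downstream component of IPO11, had 138, 158 and 148 at 24H and 224, 190.1 and 208 at 48H, with no overlap and a difference just under 1.4-fold (0.48 ± 0.11 on the log2 scale, adjusted p = 0.0138). In 9 of 63 readthrough rows the libraries of the 2 time-points did not overlap, against 27.7% of all genes. Without TMAO 24H replicate 1, 2 readthrough rows and 2 components were called, and PLA2G4B was not called without TMAO 24H replicate 3 or TMAO 48H replicate 2.

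The machinery that ends transcripts and the one that removes faulty ones were described from 2 lists. Of 28 genes of cleavage, polyadenylation and termination, 0 had an adjusted p under 0.05 at 24H in edgeR or DESeq2, beside 0.095% of all genes in edgeR. Without adjustment 1, lower, had a p under 0.05, where 7.24% of all genes did. At 48H 5 had an adjusted p under 0.05 (17.9%, beside 10.4% of all genes), none by 1.4-fold. The median log2 fold change of the list was 0.01, against 0.00 for all genes.

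NUDT21, the small subunit of cleavage factor I, was higher at 48H, with a log2 fold change against CTRL of 0.19 ± 0.04 (SE, adjusted p = 0.00704). CPSF1, the largest subunit of the cleavage and polyadenylation specificity factor (-0.17 ± 0.04, adjusted p = 0.0275), PABPN1 (-0.20 ± 0.06, adjusted p = 0.0431) and SSU72, a phosphatase of the polymerase tail (-0.14 ± 0.04, adjusted p = 0.0449), were lower. PABPN1 is also a component of a readthrough locus.

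Of 20 genes of nonsense-mediated decay, none had an adjusted p under 0.05 in any comparison by edgeR, and DESeq2 gave 1 at 48H against CTRL. Without adjustment 2 had a p under 0.05 at 24H (1 higher, 1 lower), 3 at 48H (2 higher, 1 lower) and 3 between the time-points (1 higher, 2 lower), where 7.24%, 25.8% and 22.1% of all genes did. The lowest adjusted p values at 48H were those of RBM8A, a core protein of the exon junction complex (0.12 ± 0.04, adjusted p = 0.0528), and DHX34, an RNA helicase of the pathway (-0.17 ± 0.06, adjusted p = 0.101). At 24H they were those of UPF3A (-0.16 ± 0.06, adjusted p = 0.547) and SMG1, the kinase of UPF1 (0.16 ± 0.07, adjusted p = 0.652). The summed normalised counts of this list were 67350 to 69768 in CTRL and 68318 to 70528 at 48H, which overlapped.

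Some marker genes of cell types differed between 48H and CTRL, and others did not pass. Of 12 endothelial markers, 7 were lower at 48H at an adjusted p under 0.05, as were 5.29% of all genes, none of the 7 by 1.4-fold, with summed normalised counts of 92841, 92196 and 81680 in CTRL, 85318, 81574 and 87455 at 24H and 72991, 74904 and 79751 at 48H. CDH5 had a log2 fold change of -0.26 ± 0.06 (adjusted p = 0.0181), PECAM1, another junction protein, one of -0.25 ± 0.06 (adjusted p = 0.0216) and VWF, a clotting factor carrier, one of 0.09 ± 0.08 (adjusted p = 0.5). VWF was higher at 48H than at 24H (0.51 ± 0.08, adjusted p = 0.00112). In the same comparison 5 of the 12 markers were lower at an adjusted p under 0.05, none of the 5 by 1.4-fold. Of all genes, 7.52% passed there in either direction.

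Of the 8 fibroblast markers, 6 were tested, and COL1A1 and COL1A2, collagen chains, were called lower at 48H (-0.67 ± 0.06, adjusted p = 2.17e-05, and -1.08 ± 0.08, adjusted p = 6e-06), while THY1 was higher and under 1.4-fold (0.47 ± 0.07, adjusted p = 0.00147). Their list summed to 34508, 33576 and 29602 in CTRL, 31431, 29906 and 32287 at 24H and 19366, 19664 and 21127 at 48H, with COL1A1 the most abundant at a mean of 17693, and the defining marker PDGFRA was near 0 with a mean of 7.43 to 10.6. Among 6 epithelial markers, KRT18 was the most abundant with a mean of 18673 and lower at 48H (-0.24 ± 0.05, adjusted p = 0.0131), KRT5, KRT8 and, of the fibroblast list, PDGFRB did not pass, and the epithelial list summed to 23237 to 25403 in CTRL and to 21594, 20288 and 19120 at 48H. KRT18 made up most of this sum, which therefore does not show the low KRT5, KRT14, EPCAM and CDH1 of TMAO 48H replicate 3. The 4 smooth muscle markers summed to 165 to 195 in CTRL and 244 to 292 at 48H, led by ACTA2 (0.74 ± 0.12, adjusted p = 0.00194). CNN1 (0.26 ± 0.31, adjusted p = 0.652) and MYH11, which went the other way (-0.55 ± 0.48, adjusted p = 0.512), did not pass, and DES was not tested. The 5 leukocyte markers summed to 590 to 675 in CTRL and 665 to 711 at 48H, almost all CD68, and the defining PTPRC was at 0 in 5 of 9 libraries. The part of these genes in the readthrough results was not tested, and in these bulk libraries fewer cells with a transcript and less RNA per cell cannot be told apart.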

How the data were processed

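The authors deposited estimated counts (expected counts) per gene symbol, not normalised, made with the nf-core RNAseq pipeline version 3.6. The submitters' notes also name Trim Galore. The quantifier, genome build, annotation and use of strand are not given in the sources used here. All 9 libraries had labels for group and replicate. The readthrough loci, gene lists and tests were chosen with earlier results of these data known.

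Estimated counts were rounded and tested in R 4.3.3 with edgeR 4.0.16: filterByExpr (14740 genes kept), TMM factors and the quasi-likelihood test (all 9 libraries fitted together, Benjamini-Hochberg adjustment). Normalised counts were counts divided by TMM-scaled library size and multiplied by its mean. For sums, the 3 rows of a locus were replaced by 1 row, with library sizes and factors kept. SEs came from the F statistic. Ribosomal RNA genes were kept. The test was tried on simulated counts of 14740 genes, where 200 genes with means over 50 changed 2-fold at 48H. All 200 were recovered, with 1 false call. Every gene had 1 common biological CV of 0.0744 there, so the simulation does not cover the more variable readthrough rows (median CV 21.4%). DESeq2 1.42.0, RLE factors, other filters, the 2 groups alone, a replicate block, no fold threshold, unrounded counts, sums of 2 of the 3 rows, sums with a near-identical copy and left-out libraries were alternatives. The loci named in the text were JMJD7-PLA2G4B, MINOS1-NBL1, those with a called row or sum, the 10 most counted readthrough rows, the 5 largest and 5 smallest shares and the 5 largest CVs at a mean normalised count of at least 50, and the 3 rows on either side of the mean of 10. From the pathway lists, genes with an adjusted p under 0.05 were named, or else the 2 lowest, and 1 gene is not reported here. Markers named were PECAM1, CDH5, VWF and any of another cell type over a mean of 1000. CLDN5, LIMS3L, SLX1B, SULT1A4, PDGFRA, KRT14, EPCAM, CDH1, PTPRC, CD68, ACTA2 and LRRC70 were named after their values were seen, as were TXNDC5, ADORA2A, C15orf38, THY1, CNN1, MYH11, DES and TMX2-CTNND1. Junctions were read from GENCODE release 29 transcripts (GRCh38).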

Additional observations from a re-analysis of the deposited data

Results flagged for a closer look

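Between the 2 time-points 2 rows differed past the threshold, and for these rows that comparison is the observation itself and no further evidence. TMEM256-PLSCR3 had a fitted log2 fold change at 48H against 24H of -8.24, which depends on the prior count because all libraries at 48H were at 0, and the row entered only through its high libraries at 24H. PLA2G4B had one of -0.64. The controls are not part of this contrast, but they enter the estimate of the spread behind it, since all 9 libraries were fitted together. Groups of 3 libraries are too small for a test of single outlying libraries, and none was made.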

How the results depend on the processing

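At 24H all alternatives gave 0 called readthrough rows, components and sums. At 48H against CTRL the 6 called readthrough rows became 3 with the replicate block and 4 with DESeq2, and ranged from 3 (without CTRL replicate 1 or TMAO 48H replicate 3) to 6 when 1 library was left out. Components ranged from 1 (without TMAO 48H replicate 1) to 4 (without CTRL replicate 1 or TMAO 48H replicate 3), and sums from 0 (without CTRL replicate 3 or TMAO 48H replicate 1) to 1. Without the fold threshold 12 components and 9 sums passed. At 48H against 24H, readthrough rows numbered 0 with DESeq2, with at least 10 counts in every library and with a mean count of at least 50, and 3 without the fold threshold. Components numbered 2 with at least 10 counts, with only the 2 groups compared and without ribosomal RNA genes, and 6 without the fold threshold, where sums numbered 3. Leaving out 1 library gave 1 to 2 readthrough rows, 0 (without TMAO 24H replicate 3) to 2 components and 0 to 1 sums (1 without TMAO 48H replicate 1). The cause of these shifts was not tested. DESeq2 gave 3 genes of the cleavage list at 48H against 24H in place of 1, and 1 gene of the decay list at 48H against CTRL in place of 0.

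Sums of the readthrough row and the downstream component alone, an alternative chosen after seeing the data, gave 3 called loci at 48H, and that of LIMS3-LOC440895 reversed to a log2 fold change of -0.52, since LIMS3 is left out of it. Adding the near-identical copy to a locus, also chosen after seeing the data, took the sum of SLX1A-SULT1A3 at 48H below 1.4-fold (-0.32) and turned that of LIMS3-LOC440895 from 0.07 to -0.32, neither called. Median shares of locus counts ranged from 4.07% to 4.66% in CTRL, from 4.36% to 5.29% at 24H and from 4.43% to 4.93% at 48H without 1 library.

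The replicate numbers did not pair the libraries: deviations of libraries with the same number correlated at -0.14 to 0.10 over 9 pairs, and those with different numbers at -0.11 to 0.15 over 18. With the replicate block the calls of JMJD7-PLA2G4B (adjusted p = 0.0694), RTEL1-TNFRSF6B (0.0588) and LIMS3-LOC440895 (0.0525) at 48H were lost. The block left the counts of components and sums as they were. Low counts limit the readthrough rows, 24 of which had a mean normalised count of 10 to 50.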
